A study of Mus musculus with 9 samples.

Results

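The locus described here holds Il22 and Ifng, a pair of cytokine genes on mouse chromosome 10, with the interval between them and 50 kb on either side, 118154584 to 118495894 in build mm10 (341311 bp). Its members are all peaks called in that interval, 31 of the 79216 peaks that the 6 deposited lists hold on the 21 main chromosomes, and they merged into 16 separate sites. The locus was chosen by its high scores, those of the E2A and HEB peaks beside Il22, so scores and their recurrence across lists are given below as a description, with no test. The data are chromatin immunoprecipitations of E2A and HEB, sequenced and called against the input of the same cells. All cells came from Rag2-deficient BALB/c fetal liver progenitors grown on OP9-DL1, a stromal line that displays a Notch ligand, and the 3 stages are DN3 cells, CD73- cells and CD73+ cells. DN3 cells are CD4- CD8- CD25+ CD44- thymocyte precursors, taken at day 7 of culture, and carry no rearranged receptor of their own. CD73- and CD73+ cells are DN3 cells given the KN6 gamma-delta T cell receptor by overnight co-culture with GP+E cells that release MIY-KN6 virus, with IL7, Flt3L and polybrene, sorted for YFP and cultured for 3 more days. They were then sorted as Thy1+ YFP+ CD24+ cells, and per the labels the CD73- cells could still take the alpha-beta fate while the CD73+ cells had committed to the gamma-delta fate. There are 9 libraries, 1 for E2A, 1 for HEB and 1 input per stage. The duplicates of each were joined by the authors before deposit, so replicate errors cannot be given and no p-value was computed. No cells cultured for the same time without the receptor are among the samples.

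E2A, encoded by Tcf3, and HEB, encoded by Tcf12, are basic helix-loop-helix proteins that bind DNA as dimers at E-boxes, the letters CANNTG. They drive early T cell genes. Id proteins, which rise with strong gamma-delta receptor signals, dimerise with them and block their binding. Interleukin 22, the product of Il22, belongs to the interleukin 10 family, is made by type 3 lymphocytes and acts on epithelial cells. Interferon gamma, the product of Ifng, is made by T and NK cells and activates macrophages. Gamma-delta thymocytes can acquire the capacity for interleukin 17 or for interferon gamma before they leave the thymus, and both genes have distant regulatory elements up- and downstream.

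The deposited score of a peak is 10 times the negative log10 of its MACS p-value, with a minimum of 50 in these lists. Scores can be ranked within a list but not compared between lists. The 6 lists hold 9407 to 23205 peaks on the main chromosomes, with a median width of 617 bp for DN3 E2A and 721 bp for DN3 HEB, against 149 to 181 bp in the other 4. Read depth is unknown, since the lists carry no counts. A gene or site without a peak had none called, which does not show that the factor was absent. The 5011 DN3 E2A peaks with a score of 100 or more met a peak in the CD73+ list labelled E2A in 15.2% of cases and in that labelled HEB in 51.3%. For the Il22 site and the sites at Ifng, CD73+ values are therefore also given with those lists exchanged. Elsewhere the exchange would turn each CD73+ E2A value into a HEB value and the reverse.

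Within the locus the reference carries an inverted duplication. Il22 lies on the plus strand at 118204584 to 118210047, and Iltifb, a second gene for interleukin 22 also known as Il22b, lies on the minus strand at 118289629 to 118295038. The aligned part of their RefSeq promoter entries (build GRCm38.p6, which is mm10) is shown because it lets the duplication be seen. It covers chr10:118204885-118204991 for Il22 and chr10:118294989-118295095 for Iltifb, with 101 of 107 bases identical (94.4%) and no gap. The Il22 stretch, like the whole of its promoter entry, lies inside the gene span given above. By that span it is not upstream sequence of Il22. The Iltifb stretch crosses the start of its gene span, at 118295038. Both stretches read 5′ to 3′ along the gene, and capitals mark the 6 bases that differ.
Il22: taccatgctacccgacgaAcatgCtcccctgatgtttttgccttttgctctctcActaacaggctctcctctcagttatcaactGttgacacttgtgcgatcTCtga
Iltifb: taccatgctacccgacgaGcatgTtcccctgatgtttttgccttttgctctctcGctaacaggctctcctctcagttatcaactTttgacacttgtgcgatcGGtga

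A further promoter entry of the locus is shown because peaks were called over it. The RefSeq promoter entry of Ifng, chr10:118440796-118441095 on the plus strand, runs from 250 bases before the start site to 50 bases after it. Capitals mark 2 E-box forms searched on both strands, CAGGTG with its reverse complement CACCTG, and the palindrome CAGCTG; they share no base here.
Ifng: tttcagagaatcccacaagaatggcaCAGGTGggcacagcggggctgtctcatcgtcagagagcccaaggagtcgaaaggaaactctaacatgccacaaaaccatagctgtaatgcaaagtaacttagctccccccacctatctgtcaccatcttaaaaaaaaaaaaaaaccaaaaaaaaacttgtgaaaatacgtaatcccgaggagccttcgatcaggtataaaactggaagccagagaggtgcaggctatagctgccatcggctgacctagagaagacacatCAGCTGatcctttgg

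Of the 31 peaks, the lists held 10 in DN3 E2A, 6 in DN3 HEB, 5 in CD73- E2A, 4 in CD73- HEB, 3 in CD73+ E2A and 3 in CD73+ HEB. Of 7964 windows of the same length laid along the chromosomes, 1.49% held at least as many DN3 E2A peaks, 4.52% as many DN3 HEB peaks, 4.03% as many CD73- E2A peaks and 5.16% as many CD73- HEB peaks. For CD73+ cells the shares were 47.7% for E2A and 15.2% for HEB, so the CD73+ E2A count was an ordinary one for that list. Of the 16 sites, 2 had a peak in all 6 lists, 1 in 3 lists, 2 in 2 lists and 11 in 1 list. Over the whole series 607 of 58451 merged sites (1.04%) were in all 6 lists and 82.3% in 1 list, and 0.64% of the windows held 2 or more sites of the 6-list kind. Both such sites of the locus lay at the copies of the interleukin 22 gene, and neither was inside a gene. Peaks were also joined in chains, each linked pair covering at least 50% of each other, though not every pair in a site did. The site at Il22 then still had all 6 lists. That at Iltifb split into the 4 CD73- and CD73+ lists and the 2 DN3 lists, whose peaks are wider. At Il22 only the CD73+ HEB peak (602 bp) linked the rest to DN3, at just over 50% of the DN3 E2A peak (1200 bp). At Iltifb those peaks were 509 and 1129 bp, under that cutoff, so the difference between the sites rests on this link.

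**Figure D1:**
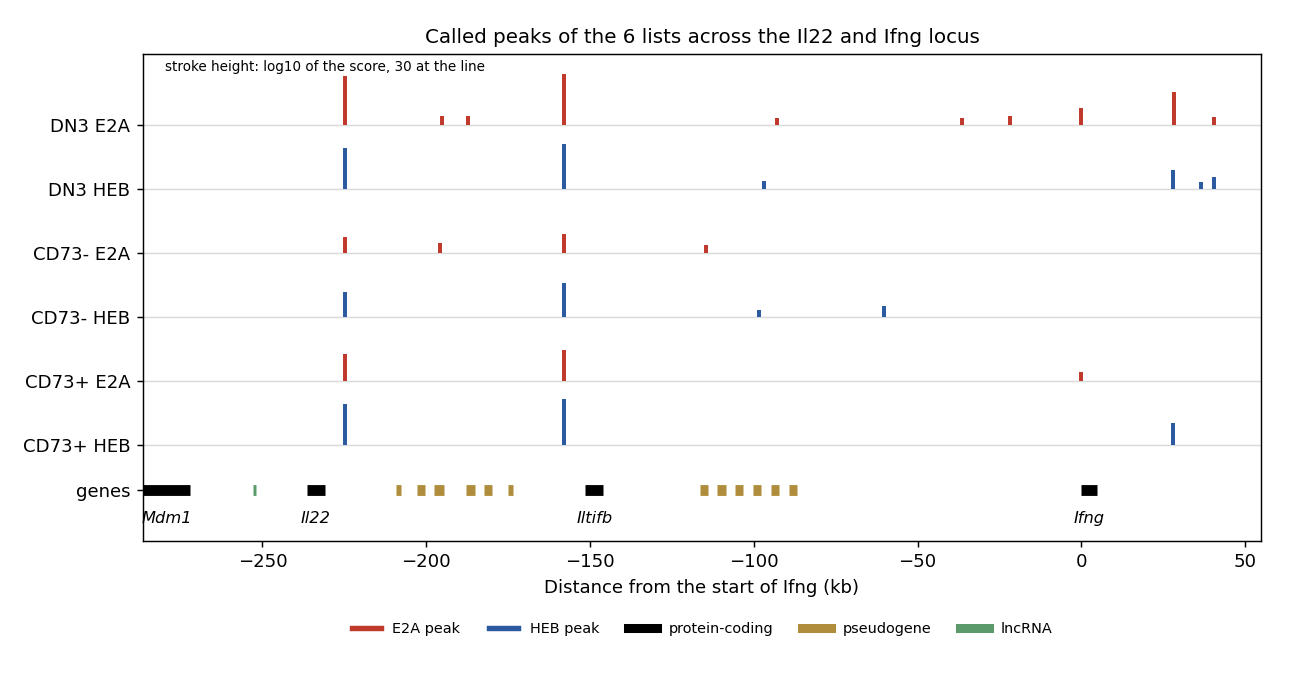
Peaks of each list (rows) by distance in kb from the start of Ifng, with genes below; stroke height is the log10 of the deposited score. Strokes beside Il22 and Iltifb stand in all 6 lists, while those at and beyond Ifng stand in some lists only.

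The site at Il22 spans 118215399 to 118216994 and begins 5352 bp beyond the 3′ end of the gene. In DN3 cells its highest peak scored 1866 for E2A and 971 for HEB. In CD73- cells the values were 109 for E2A and 247 for HEB, and in CD73+ cells 291 for E2A and 951 for HEB. Set against each list, 101 of 12357 DN3 E2A peaks (0.817%) and 120 of 11619 DN3 HEB peaks (1.03%) scored at least as high. The corresponding shares were 7.58% for CD73- E2A, 4.41% for CD73- HEB, 0.698% for CD73+ E2A and 1.09% for CD73+ HEB. Thus the site stood near the top of the DN3 and CD73+ lists and lower in both CD73- lists. The CD73- E2A list had 2 narrow peaks there, the lower scoring 53.1 and set apart from the higher by a short gap. A stretch of 216 bp, 118216228 to 118216443, was shared by the highest peak of all 6 lists, and the midpoints of those peaks lay within 139 bp of each other.

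The site at Iltifb spans 118282425 to 118283776 and begins 5853 bp beyond the 3′ end of that gene, 65.4 kb from the site at Il22. It scored 2208 for E2A and 1274 for HEB in DN3 cells. In CD73- cells it scored 149.6 for E2A and 515 for HEB, and in CD73+ cells 404 for E2A and 1464 for HEB. In DN3 cells 0.615% of E2A peaks and 0.525% of HEB peaks scored at least as high. In CD73- cells the shares were 4.79% for E2A and 1.34% for HEB, and in CD73+ cells 0.422% for E2A and 0.520% for HEB. All 6 lists shared 341 bp, 118282993 to 118283333, and the midpoints lay within 166 bp of each other. The higher of the sites beside an interleukin 22 gene was therefore the one at Iltifb, in every list. The score of the Il22 site minus that of the Iltifb site was -342 in DN3 E2A, -303 in DN3 HEB, -40.6 in CD73- E2A, -268 in CD73- HEB, -113 in CD73+ E2A and -513 in CD73+ HEB. These differences have no error, since each list is 1 pooled call.

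These sites take mirrored positions on the reference. The annotated pseudogenes Gm9585 and Gm9035 are each 1666 bp long and Gm9029 and Gm9030 each 2846 bp, and both pairs are placed symmetrically about position 118249734. The pair Gm32717 and Gm32802, 2475 and 2497 bp long, is centred within 10 bp of it, and Il22 with Iltifb within 104 bp. When each Il22-side peak was reflected about that centre, which the peaks did not enter, its midpoint fell 8 to 206.5 bp from the midpoint of the Iltifb-side peak of the same list. At least 96.2% of the narrower peak was covered by the reflected one in every list. The pair of DN3 E2A peaks at 118245707 to 118246067 (63.2) and 118253409 to 118253974 (60.2), within Gm9029 and Gm9030, also overlapped when one was reflected. The aligned stretch of the Il22 promoter entry, reflected in the same way, fell 512 bp from that of Iltifb. A CD73- E2A peak within Gm9029 at 118245022 to 118245249 (68.0) had no peak at its mirror position, and the nearest was 245 bp away.

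How far a read can be assigned to either copy depends on how alike they are and on how reads with several matches were treated, which is not given in the sources used here. The sequence of the peaks was not analysed here. The build is that of C57BL/6J, while the labels give the strain as BALB/c, and the second interleukin 22 gene is known from C57BL/6 but was described as missing from BALB/c mice. Whether the cells carried both copies was not tested. Binding at Il22 and binding at Iltifb cannot be told apart from these lists.

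**Figure D2:**
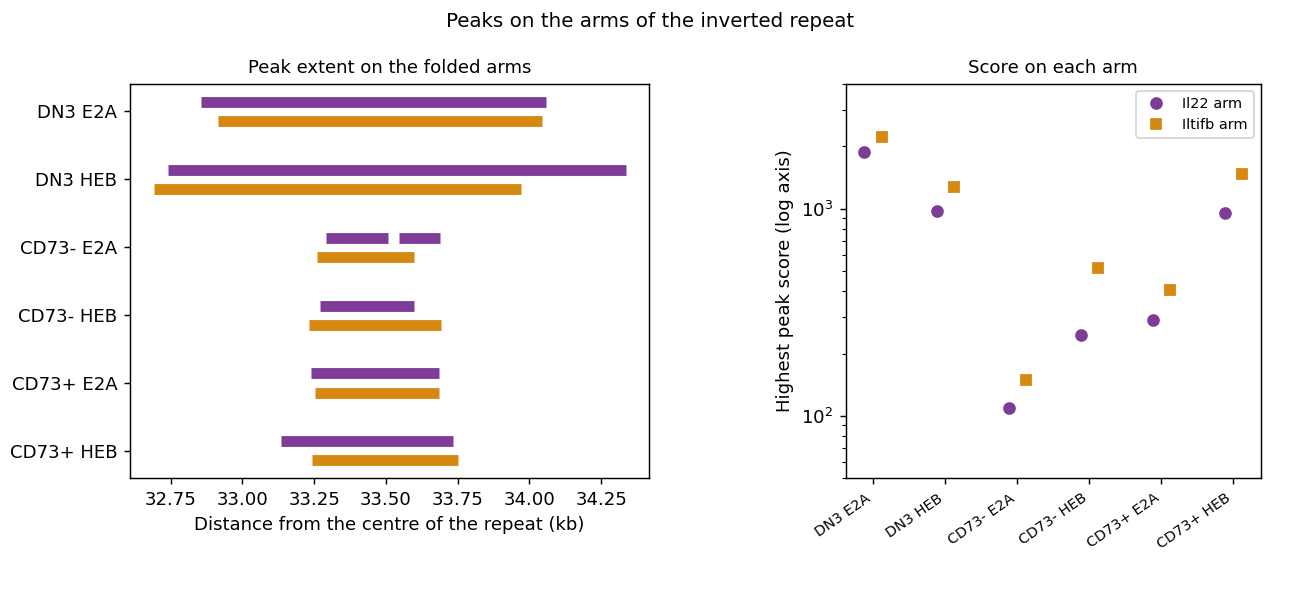
Left, the extent of each peak by absolute distance in kb from the centre of the repeat, with the Il22 arm (purple) above the Iltifb arm (orange) for each list. Right, the highest score per list on a log axis; the Il22 arm is the lower of the pair in all 6 lists.

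The 607 sites with a peak in all 6 lists give a closer comparison for these sites. In DN3 cells 13.3% of them had an E2A peak, and 15.0% a HEB peak, at least as high as that at Il22. In CD73- cells the shares were 75.3% for E2A and 46.0% for HEB, so that the CD73- E2A peak at Il22 (109) was below the median of such sites (184). In CD73+ cells they were 22.4% for E2A and 17.1% for HEB. The site at Iltifb stood higher throughout, with 10.5% for E2A and 8.57% for HEB in DN3 cells, 58.8% for E2A and 16.6% for HEB in CD73- cells, and 13.3% for E2A and 8.57% for HEB in CD73+ cells. The place of both sites was thus lowest in the CD73- E2A list. With the CD73+ lists exchanged, the CD73+ values at Il22 are 951 for E2A and 291 for HEB. The exchange only renames those lists, so it cannot change the place of either site in any list.

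The 11 sites of 1 list scored 52.3 to 73.3, with a median of 57.0, close to the minimum of the lists. Of these sites 5 came from DN3 E2A, 2 from DN3 HEB, 2 from CD73- E2A and 2 from CD73- HEB. There were 6 within the span of an annotated pseudogene, and the 12 pseudogenes of the locus cover 8.41% of it. All 6 lay in the mirrored pair Gm9029 and Gm9030 or in the array described next. The share of such sites in pseudogenes over the whole series was not computed. Between Iltifb and Ifng stands an array of 6 pseudogenes, each 2441 to 2459 bp long and spaced 5406 to 5439 bp apart, and 4 peaks of 4 different lists lay within its limits at different places. The interval from the array to the Ifng promoter held a CD73- HEB peak at 118380732 to 118380873 (73.3) and DN3 E2A peaks at 118404204 to 118404777 (53.7) and 118419006 to 118419498 (60.9). Of the DN3 E2A list 88.6% and 72.4% of peaks scored at least as high as the last pair, which makes each of them weak evidence of a site.

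At the Ifng promoter, E2A peaks were called in DN3 and CD73+ cells. The DN3 E2A peak, 118440615 to 118441118, scored 119, and the CD73+ E2A peak, 118440830 to 118440979, scored 63.0 and lay within it. Neither HEB list of those stages had a peak there, and no list of CD73- cells did. In the DN3 E2A list 34.0% of peaks, and in the CD73+ E2A list 44.9%, scored at least as high, so both were middling peaks. Of 32851 promoter entries of 300 bases, 2.23% overlapped a DN3 E2A peak and 0.286% a CD73+ E2A peak. The share was 2.43% for DN3 HEB, 0.347% for CD73- E2A, 0.496% for CD73- HEB and 1.5% for CD73+ HEB. With the CD73+ lists exchanged, the CD73+ peak counts as HEB.

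The printed Ifng promoter holds 1 CAGGTG, which begins at base -224 from the start site, and 1 CAGCTG, which begins at base 36 after it. Both lie under the DN3 E2A peak and neither under the narrower CD73+ E2A peak. Of all promoter entries 20.2% hold CAGGTG on either strand, 16.3% hold CAGCTG, 3.57% hold both of these forms, and 72.3% hold some CANNTG, which covers both. The promoter entries of Il22 and Iltifb, which have no peak in any list, hold 3 and 2 matches to CANNTG and none to the forms marked above. That of Il22 lies inside the gene span, so sequence upstream of the span was not searched. A match is only a run of letters and does not show binding.

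Downstream of Ifng the main site spans 118468511 to 118469716, beginning 22617 bp beyond the 3′ end of the gene. Its peaks scored 469 for E2A and 143 for HEB in DN3 cells and 182 for HEB in CD73+ cells, and no CD73- list and no CD73+ E2A list had one. In the DN3 E2A list 6.89% of peaks scored at least as high, in the DN3 HEB list 19.6% and in the CD73+ HEB list 12.5%. The 3 peaks shared 582 bp, 118468895 to 118469476. With the CD73+ lists exchanged, the site has E2A in DN3 and CD73+ cells and HEB in DN3 cells. It lies between Ifng and Ifngas1, a long noncoding RNA gene known to promote Ifng transcription, whose span begins at 118502035, beyond the upper edge of the locus. A weaker site at 118480997 to 118482140 had peaks in DN3 cells only, 59.1 for E2A and 82.4 for HEB, and DN3 HEB had a peak of 54.0 at 118477221 to 118477734. The Ifng side of the locus thus had peaks in DN3 and CD73+ cells, while within 50 kb of Ifng no CD73- peak was called. Taken list by list, most protein-coding genes lacked one too: 41.3% had a CD73- E2A peak and 37.9% a CD73- HEB peak within 50 kb. The share of genes that lacked a peak in both lists, as Ifng did, was not computed.

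The edges of the locus fell in stretches without peaks. At the lower edge the first site inside was that at Il22, 60.8 kb from the edge. The nearest site outside lay below Mdm1, a gene of centriole biology, and had peaks of 302 for DN3 E2A, 143 for DN3 HEB and 203 for CD73+ HEB, 31.8 kb from the edge. At the upper edge the last site inside was that at 118480997, 13.8 kb from it, and the first outside was a DN3 HEB peak of 57.8, 158 kb away. Mdm1 itself, which reaches into the locus, had no peak in its span, nor had the long noncoding RNA gene Gm40775 between Mdm1 and Il22.

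By gene, Il22 had a peak in its span or within 10 kb in all 6 lists, as did 3.28% of 21883 protein-coding genes. Genes with such a peak made up 26.2% for DN3 E2A, 24.3% for DN3 HEB, 17.6% for CD73- E2A, 17.1% for CD73- HEB, 23.7% for CD73+ E2A and 20.2% for CD73+ HEB. A peak at least as high as that of Il22 stood near 0.393% of genes for DN3 E2A and 0.434% for DN3 HEB. The share was 2.78% for CD73- E2A, 1.46% for CD73- HEB, 0.416% for CD73+ E2A and 0.434% for CD73+ HEB. Ifng had a peak within 10 kb in 2 lists, DN3 E2A and CD73+ E2A, and 11.6% of genes in DN3 E2A and 15.1% in CD73+ E2A had one at least as high. Within 25 kb, a distance chosen after the data were seen, Ifng had a peak in 4 lists. Its scores were 469 for DN3 E2A, 143 for DN3 HEB, 63.0 for CD73+ E2A and 182 for CD73+ HEB. Of all genes 36.7%, 34.7%, 37.0% and 29.5% had a peak within 25 kb in those lists, in that order. The count of genes at or above Il22, itself included, was 86 for DN3 E2A, 95 for DN3 HEB, 608 for CD73- E2A, 320 for CD73- HEB, 91 for CD73+ E2A and 95 for CD73+ HEB.

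**Figure D3:**
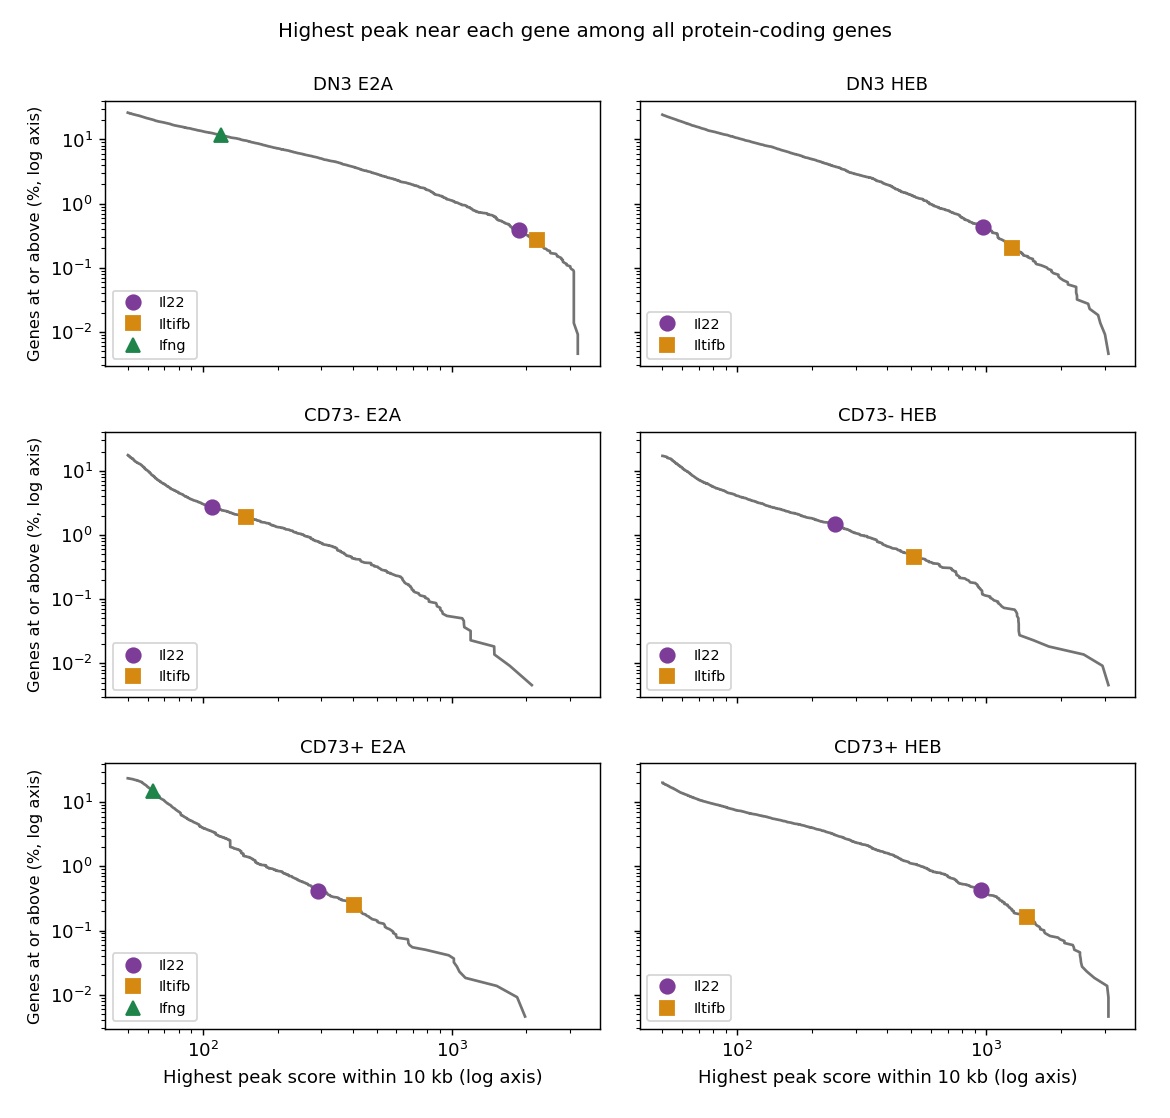
For each list, the share of protein-coding genes with a peak at or above a given score within 10 kb (grey line, both axes log), with Il22, Iltifb and Ifng marked. Il22 and Iltifb stand far down the line in every panel, and Ifng appears in the DN3 E2A and CD73+ E2A panels only.

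The genes most like Il22 were those with the smallest mean difference in percentile rank over the 6 lists. After Iltifb, at 0.443 percentile points, came Ddit4, a stress-induced inhibitor of mTORC1 (0.517), Tpst2, a tyrosine sulfotransferase (0.584), 1110051M20Rik (0.599) and Msh4, a gene of meiotic recombination (0.599). Ddit4 had 1877 for E2A and 872 for HEB in DN3 cells, 328 for E2A and 215 for HEB in CD73- cells, and 181 for E2A and 757 for HEB in CD73+ cells. In the CD73- E2A list Il22 had the lowest score of these genes, at 109, against 118 to 374 for the other 5. In the CD73+ E2A list it stood at 291, against 128 to 433. By Spearman correlation of the 6 ranks, 1 of these 5 genes, Msh4 (0.870), remained among the 5 most alike, which were led by Fstl4 (0.986), while Iltifb had 0.464. The choice of these genes thus depended on the measure of likeness, which describes 6 pooled lists and carries no p.

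Of 20 lymphocyte cytokine genes, Il22, for whose peaks the locus was chosen, was the only one with a peak within 10 kb in all 6 lists. There were 10 with none in any list, as was the case for 45.5% of all protein-coding genes. These 10 were Il3, Il4, Il5, Il13, Il17a, Il17f, Il21, Csf2, Tgfb1 and Ccl5. Those with a peak numbered 9 for DN3 E2A (45.0% of the list, beside 26.2% of all genes) and 9 for DN3 HEB (45.0%, beside 24.3%). They numbered 2 for CD73- E2A (10.0%, beside 17.6%) and 1 for CD73- HEB (5.00%, beside 17.1%). In CD73+ cells they numbered 3 for E2A (15.0%, beside 23.7%) and 8 for HEB (40.0%, beside 20.2%). Within 10 kb the share of the list was thus above that of all genes in both DN3 lists and in CD73+ HEB. It was below in the other 3. The direction in the former lists did not hold for the gene span alone. There the shares were 10.0% beside 17.4% for DN3 E2A, 10.0% beside 16.0% for DN3 HEB and 5.00% beside 12.8% for CD73+ HEB. Within 10 kb the median score of members with a peak was 134 for DN3 E2A, beside 103 over all genes with a peak. For CD73+ HEB it was 72.4, beside 75.2. Il9, a type 2 and mast cell cytokine gene, came next to Il22 with 458 for DN3 E2A and 279 for DN3 HEB, and with 482 for CD73+ HEB. Il2, the T cell growth factor gene, had 221 for DN3 E2A, 155 for DN3 HEB and 219.6 for CD73+ HEB. In CD73- cells Il22 was the only member with a HEB peak, and Il9 had the other E2A peak (64.3). Tnf and Lta, which are neighbours, had the same scores in every list, as did Ccl3 and Ccl4. The counts above for both DN3 lists and for CD73+ HEB thus include the peaks of each pair more than once.

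**Figure D4:**
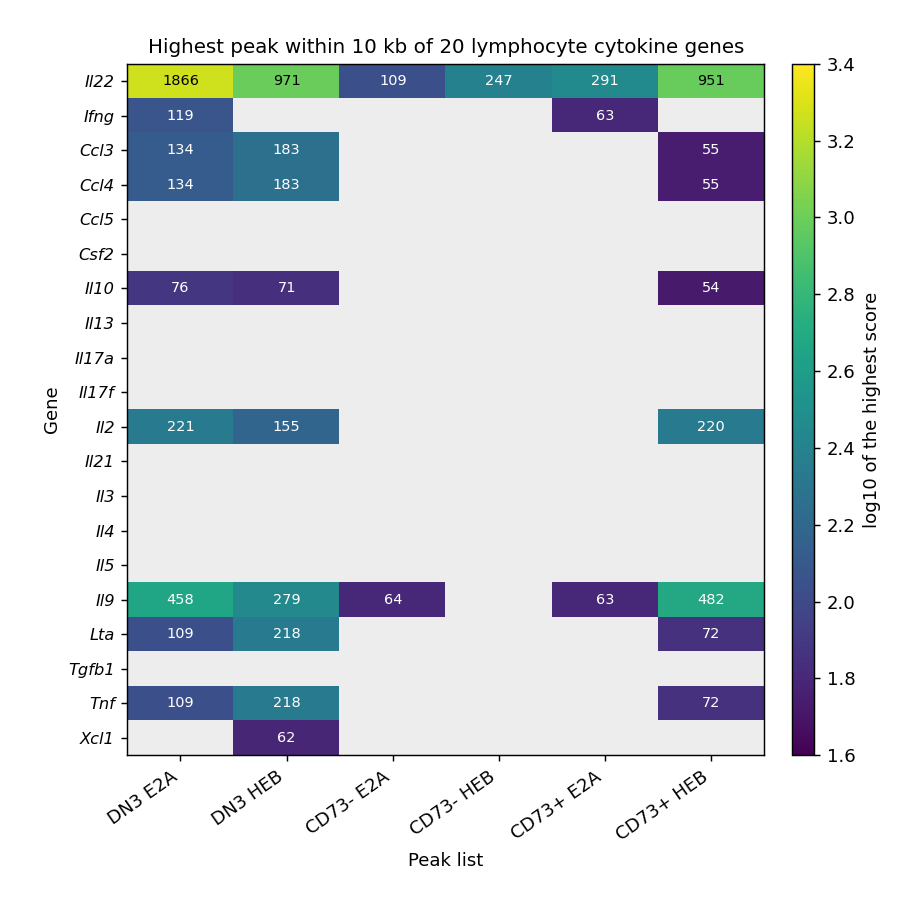
Highest deposited score within 10 kb of each of 20 cytokine genes (rows) in each list (columns), coloured by its log10; grey means no peak called. The row of Il22 is the only one filled in all 6 columns, and 10 rows are empty.

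Among 19 genes of the type 3 cytokine programme, those with a peak numbered 10 for DN3 E2A (52.6%, beside 26.2% of all genes) and 11 for DN3 HEB (57.9%, beside 24.3%). In CD73- cells they numbered 5 for E2A (26.3%, beside 17.6%) and 6 for HEB (31.6%, beside 17.1%). In CD73+ cells they numbered 7 for E2A (36.8%, beside 23.7%) and 8 for HEB (42.1%, beside 20.2%). Within 10 kb the share was above that of all genes in all 6 lists. Il22, for whose peaks the locus was chosen, is counted in each of them. For CD73- E2A the direction did not hold at other distances. Its share was below that of all genes for the gene span alone and within 50 kb (36.8%, beside 41.3%). The other lists stayed above at both distances. Within 10 kb the median of members with a peak was 165 for DN3 E2A, beside 103 over all genes with a peak, and 274 for CD73+ HEB, beside 75.2. Il22 had the highest score of them for DN3 E2A and for CD73+ HEB. Sox4, a factor of early gamma-delta cells, followed with 1467 for DN3 E2A and 836 for CD73+ HEB, and Blk, a Src family kinase that mouse interleukin 17-producing gamma-delta cells need, with 762 for DN3 E2A and 487 for CD73+ HEB. The effector cytokines Il17a, Il17f and Il21, the regulator Maf, and the receptor genes Il22ra2 and Il10rb had no peak in any list. The receptor gene Il22ra1 had a DN3 E2A peak of 63.9 and no other.

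Among 19 genes of the interferon gamma programme, those with a peak numbered 11 for DN3 E2A (57.9%, beside 26.2% of all genes) and 9 for DN3 HEB (47.4%, beside 24.3%). In CD73- cells they numbered 4 for E2A (21.1%, beside 17.6%) and 8 for HEB (42.1%, beside 17.1%). In CD73+ cells they numbered 9 for E2A (47.4%, beside 23.7%) and 10 for HEB (52.6%, beside 20.2%). Of these shares, that for CD73- E2A lay close to the share of all genes. The median of members with a peak was 237 for DN3 E2A, beside 103 over all genes with a peak, and 127 for CD73+ HEB, beside 75.2. For CD73- HEB it was 59.5, beside 65.6, and for CD73+ E2A 62.4, beside 67.15. Cd27, a costimulatory receptor of interferon gamma-producing gamma-delta cells, had 935 for DN3 E2A and 1128 for CD73+ HEB. Irf1, an interferon-induced factor, had 299 for DN3 E2A, and Runx3, a factor of cytotoxic cells, 424 for CD73+ HEB. Tbx21, which encodes T-bet, had a peak in CD73+ E2A alone (54.1), and Eomes, Hlx and Il12rb1 had none. The CD73+ E2A peaks of this list were all under 100, as was that at Ifng. Peaks do not measure expression, so the identity of the cells was not tested by them. Of 7 DN3 thymocyte markers, 7 had a peak within 10 kb for E2A and 7 for HEB in DN3 cells, 3 for E2A and 5 for HEB in CD73- cells, and 2 for E2A and 5 for HEB in CD73+ cells. Of 3 CD73+ gamma-delta markers, 1 had one for E2A and 2 for HEB in DN3 cells, 0 for E2A and 1 for HEB in CD73- cells, and 1 for E2A and 2 for HEB in CD73+ cells. Of 4 B cell markers, Ebf1 had a peak in DN3 E2A and DN3 HEB only and Pax5 in CD73+ HEB only. The others had none in any list. Of 4 myeloid markers, 2 had a peak in each DN3 list and 1 in each of the other 4, and of 4 OP9 stroma markers 0 to 2 had one. With 3 to 7 genes a list, these counts are too few to be read against the 17.1 to 26.2% of all genes.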

How the data were processed

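Per the labels' protocols, chromatin was fixed for 10 min in 1% formaldehyde and precipitated with rabbit sera to E2A or HEB. Bowtie, HOMER and MACS 1.4.2 with build mm10 are named in the submitters' processing notes, per the labels. Per the labels, duplicates were joined into 1 file. The deposited score of each peak is 10 times the negative log10 of the p-value that MACS gave. The other deposited columns are peak start and end. Lists were matched to groups by their names, with 0 columns unmatched. Per list, peaks on 21 chromosomes were used unchanged, with starts turned to 1-based positions. Peaks sharing at least 1 bp were merged into sites. Genes and promoters came from RefSeq tables of the same build, with 21883 protein-coding genes. No genome sequence was used.

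The members, gene lists and comparisons were chosen with earlier results of these data known. Named genes are Il22, Ifng, their neighbours, sites in 2 or more lists or scoring at least 100, the 5 genes most like Il22 and, of each gene list, the 3 highest in DN3 E2A and in CD73+ HEB and those without a peak. Not every gene so named is reported here. Merging and gene assignment were tested on simulated data. Python 3.11.15, pandas 2.3.3, numpy 2.4.6, biopython 1.88 and matplotlib 3.10.9 were used. Alternatives are in the closing section.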

Additional observations from a re-analysis of the deposited data

How the results depend on the processing

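With only peaks scoring at least 100, the locus held 4 peaks in DN3 E2A, 3 in DN3 HEB, 2 in CD73- E2A and 2 in CD73- HEB, and 4 sites in all. Ifng then kept a peak within 10 kb in 1 list, as it did with lists shortened to 9407 peaks. In any list, 23 rather than 37 of the 53 genes in the 3 cytokine gene lists had one. Without the limit of 100, 45.5% of all protein-coding genes had no peak within 10 kb in any list. The share of all genes at that limit was not computed. Exchanging the CD73+ lists gave Il22 a score of 951 for E2A and 291 for HEB. With the gene span alone, 0 lists had a peak at Il22 and 1 at Ifng. Within 50 kb, and within 25 kb, Ifng had peaks in 4 lists, with 469 for DN3 E2A. A flank of 10 kb left 3 DN3 HEB peaks, and ranking likeness by Spearman correlation kept 1 of the 5 genes, Msh4. Requiring 50% reciprocal overlap of linked peaks gave 19 sites, with 1 in all 6 lists, that at Il22, which was held together by a link near that cutoff. Midpoints within 200 bp, a flank of 100 kb and leaving out peaks wider than 3000 bp moved no count of peaks or sites at the locus by more than 1.5 times. No paired analysis was possible because each group has 1 pooled list. Depth is unknown, and a peak that was not called does not show absence.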
